A study of Homo sapiens with 24 samples.

Results

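The genes described here are PCNA, the 5 subunits of replication factor C (RFC1, RFC2, RFC3, RFC4 and RFC5), the flap endonuclease FEN1 and the DNA ligase LIG1. They were chosen by name as the sliding clamp, its loader and the enzymes that finish Okazaki fragments, and their probes were found through the RefSeq accession given for each probe in the array output. These 8 genes had 11 probes on the array version used at 24 h and 10 on the version used at 48 h, out of 36639 genes tested at 24 h and 37683 at 48 h. Expression was measured in LNCaP, a prostate cancer cell line derived from a lymph node metastasis, on 24 one-colour Agilent arrays.

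All cells were grown in RPMI-1640 with fetal bovine serum and electroporated with 1 siRNA duplex. The si-A1 duplex targets the long non-coding RNA TAPIR-1, si-A2 targets TAPIR-2, and si-SCRL is a scrambled control with no intended target. RNA was taken after 24 h or 48 h from 4 biological replicates per siRNA. On these arrays each target was addressed with 1 duplex. An effect of the target and an effect of the duplex sequence therefore cannot be told apart in them. Time point and array version cannot be told apart either. Outside the arrays, the paper also used another siRNA per target, and DU145 cells that lack significant TAPIR-1 or TAPIR-2 levels. Replicate 2 of si-A2 at 48 h was a dim array and was left out, which leaves 3 arrays in that group and 23 in all.

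PCNA forms a ring that slides along DNA and holds the replicative polymerases in place. Replication factor C opens the ring and closes it around primed DNA, and on the lagging strand this is repeated for every Okazaki fragment. FEN1 then cuts the flap displaced from the next fragment and LIG1 seals the remaining nick. In dividing cells, prostate cancer cells included, these genes are transcribed mainly as cells enter and pass through S phase, under factors of the E2F family.

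Because E2F factors bind a short motif in such promoters, the RefSeq promoter sequences of GRCh38.p14, from 250 bases before to 50 after each annotated start, were searched for it. All 8 genes matched an entry. The E2F-like letters searched on both strands were TTCCCGC and its variants, of which the first is TTGGCGC, the second was entered as TTCGCGC and the last was entered as TTGCCGC. At least 1 of them was found in the first promoter entry of 7 of the 8 genes, against 13.0% of all 35116 entries. The match nearest to the start site is printed below for each of the 7 genes, in the direction of the gene and with 10 bases on either side where the window allows, since it is the sequence feature most of the genes share. Capitals mark the matched letters, which read as the reverse complement where the match lies on the other strand.

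PCNA, chr20:5126665-5126691, minus strand, 59 bases before the start: agcgtcagggGCGGGAAaaggcgtgcg
RFC1, chr4:39366313-39366338, minus strand, inside the gene from base 35: ggagaagttgTTGGCGCgaatggatc
RFC2, chr7:74254388-74254414, minus strand, across the start: gcctcgggtgGCGGGAAgaggaggcgc
RFC3, chr13:33818084-33818110, plus strand, 55 bases before the start: tttggagctcGCGGGAAaacttgtctc
RFC4, chr3:186806476-186806502, minus strand, 10 bases before the start: taccggcgtaTTCCCGCcctgcttttc
RFC5, chr12:118016708-118016734, plus strand, inside the gene from base 16: ttgcttttgcGCGCGAActgtaagtgc
LIG1, chr19:48170318-48170344, minus strand, inside the gene from base 11: agacgtctgcGCGCGAAtgccgtggcg

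Both FEN1 and the second annotated promoter of PCNA held none of these letters in the window. In RFC1 the printed match is overlapped by a match to TTCGCGC. The CCAAT box, searched as CCAAT on both strands, was found in PCNA, RFC1 and RFC5, that is in 3 of 8 genes against 34.6% of all entries. The cell cycle homology region, searched as TTTGAA, was found in 0 of 8 against 15.2% of all entries. These are matches of letters and not measured binding sites.

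**Figure D1:**
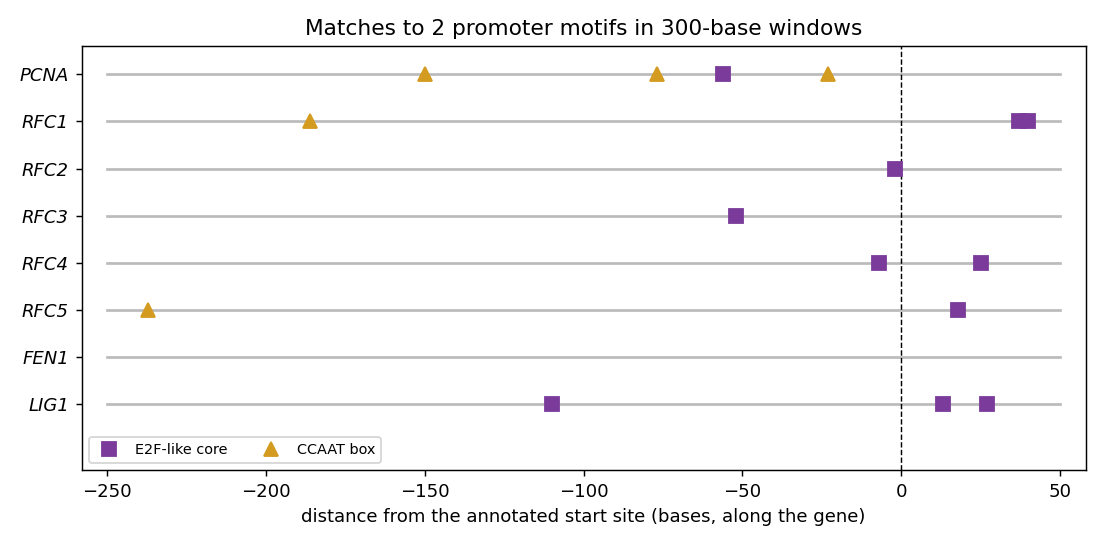
Positions of the matches to the E2F-like letters and to CCAAT in the first promoter entry of each of the 8 genes, with the distance from the annotated start site in bases on the x axis and 1 grey line per gene. Matches to the E2F-like letters (squares) lie on the lines of 7 genes and are missing from that of FEN1, and matches to CCAAT (triangles) lie on 3.

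Before the results, the arrays were checked against their labels. A probe for TAPIR-2 read 5.04 ± 0.20 (SD, n = 4) on the log2 scale with si-SCRL at 24 h and 4.06 ± 0.74 (n = 4) with si-A2, a log2 difference of -0.98 with a limma adjusted p of 0.253. At 48 h the same probe differed by 0.23 (adjusted p = 0.75) and on no array did a second probe reach well above background. No probe was matched to TAPIR-1, so the knockdown of that target was not checked here. KLK3, KLK2, TMPRSS2 and FOLH1, markers of luminal prostate cancer cells, were well above background on every array. Of 11 markers of other cell types, 5 were well above background on all arrays at 24 h and 4 at 48 h. On no array were 3 of them at 24 h and 2 at 48 h, and a leukocyte marker had no value at 48 h. The median processed intensity of the arrays ranged from 24.4 to 57.2 at 24 h, and from 20.4 to 32.2 for those used at 48 h. Each of the 8 genes was well above background on every array that entered a fit.

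At 24 h, 6 of the 8 genes fell with si-A1, the duplex against TAPIR-1, and 6 fell with si-A2, the duplex against TAPIR-2. The genes that fell were PCNA, RFC2, RFC3, RFC4, RFC5 and FEN1, with log2 differences from -1.84 to -1.16 with si-A1 and from -2.03 to -1.13 with si-A2. A gene is called here at a limma adjusted p below 0.01 and a log2 difference of at least 0.5 in size. Among all genes tested, 0.958% were called lower with si-A1 and 0.827% with si-A2. With the filter on probes well above background, 504 of 24528 genes were called lower with si-A1 and 398 of 24528 with si-A2. The median difference over the 8 genes was -1.34 with si-A1 and -1.30 with si-A2, beside 0.05 over all genes in both comparisons. Since both comparisons use the same 4 si-SCRL arrays, they are not independent of each other. In bulk RNA, fewer cells in S phase and less RNA of these genes per cell cannot be told apart.

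FEN1 (chromosome 11, 61792911 to 61797238 on GRCh38.p14) removes the displaced flap. It read 8.86, 8.87, 8.86 and 8.76 log2 units on the si-SCRL arrays at 24 h, 7.05, 7.10, 7.03 and 6.81 with si-A1, and 6.91, 6.79, 6.67 and 6.86 with si-A2. Every si-A1 or si-A2 array was more than 1 log2 unit below every control array. The log2 difference was -1.84 (SE 0.11; adjusted p = 2.89e-05) with si-A1 and -2.03 (SE 0.11; adjusted p = 1.21e-05) with si-A2, that is 3.58-fold and 4.08-fold lower intensity.

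PCNA (chromosome 20, 5114953 to 5126622) is the clamp itself. On its brightest probe it read 9.93, 10.08, 10.37 and 10.11 log2 units with si-SCRL at 24 h, 8.91, 8.68, 8.86 and 8.42 with si-A1, and 9.04, 8.91, 8.80 and 8.93 with si-A2. The si-A1 and si-A2 arrays lay below all control arrays, and they overlapped each other. The log2 difference was -1.40 (SE 0.15; adjusted p = 0.000645) with si-A1, or 2.64-fold lower intensity, and -1.20 (SE 0.15; adjusted p = 0.00176) with si-A2. The other PCNA probes on this array version gave -1.39 and -1.34 with si-A1 and -1.33 and -1.49 with si-A2, so all 3 probes moved alike.

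The small subunits of the loader, RFC2 (chromosome 7, 74231502 to 74254399), RFC3 (chromosome 13, 33818149 to 33977377), RFC4 (chromosome 3, 186789900 to 186806482) and RFC5 (chromosome 12, 118016703 to 118041448), pack with RFC1 into the complex that opens the ring. RFC4 read 8.52, 8.35, 9.39 and 8.68 log2 units with si-SCRL at 24 h, 7.28, 6.93, 7.19 and 7.10 with si-A1, and 7.14, 7.29, 7.27 and 7.41 with si-A2. Its differences were -1.61 (adjusted p = 0.000994) with si-A1 and -1.46 (adjusted p = 0.00198) with si-A2. The si-SCRL arrays of RFC4 spread more than those of FEN1, but the lowest of them was still above every si-A1 and si-A2 array.

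RFC2 read 8.01, 7.86 and 7.54 log2 units on the si-SCRL arrays of replicates 2, 3 and 4 at 24 h, 6.52, 6.27, 6.32 and 6.08 with si-A1, and 6.78, 6.50, 6.21 and 6.29 with si-A2. Its spot on si-SCRL replicate 1 carried an outlier flag and a processed intensity of 19773, against 149.69 to 331.71 on the other si-SCRL arrays, and was set aside, so this group has n = 3 for RFC2. The difference was -1.55 (adjusted p = 0.000604) with si-A1 and -1.41 (adjusted p = 0.00109) with si-A2. With that spot kept, an alternative added after the data were seen, the values were -3.21 (adjusted p = 0.28) and -3.07 (adjusted p = 0.338), and RFC2 was no longer called.

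RFC5 differed by -1.28 (adjusted p = 0.00168) with si-A1 and -1.13 (adjusted p = 0.0039) with si-A2, and its si-SCRL arrays, between 6.74 and 7.28 log2 units, did not overlap either of the other groups. RFC3 read between 7.76 and 8.57 with si-SCRL, between 6.90 and 6.99 with si-A1 and between 6.28 and 6.88 with si-A2. It differed by -1.16 (adjusted p = 0.00833) and -1.44 (adjusted p = 0.00216) on its brightest probe, and its second probe gave -1.70 and -1.86. The si-A1 call of RFC3 on the brightest probe was close to the threshold and was lost when 1 array was left out in 10 of 12 cases.

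RFC1 and LIG1 moved less and were not called at 24 h. RFC1 (chromosome 4, 39287456 to 39366362), the large subunit of the loader, differed by -0.51 (adjusted p = 0.0865) with si-A1 and -0.50 (adjusted p = 0.108) with si-A2. LIG1 (chromosome 19, 48115445 to 48170344), which seals the nick, differed by -0.64 (adjusted p = 0.0207) and -0.43 (adjusted p = 0.144). Even so, both genes read lower on every si-A1 and si-A2 array than on every si-SCRL array. Such a separation held for 8 of 8 genes in both comparisons, beside 5.10% of all genes with si-A1 and 4.16% with si-A2.

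**Figure D2:**
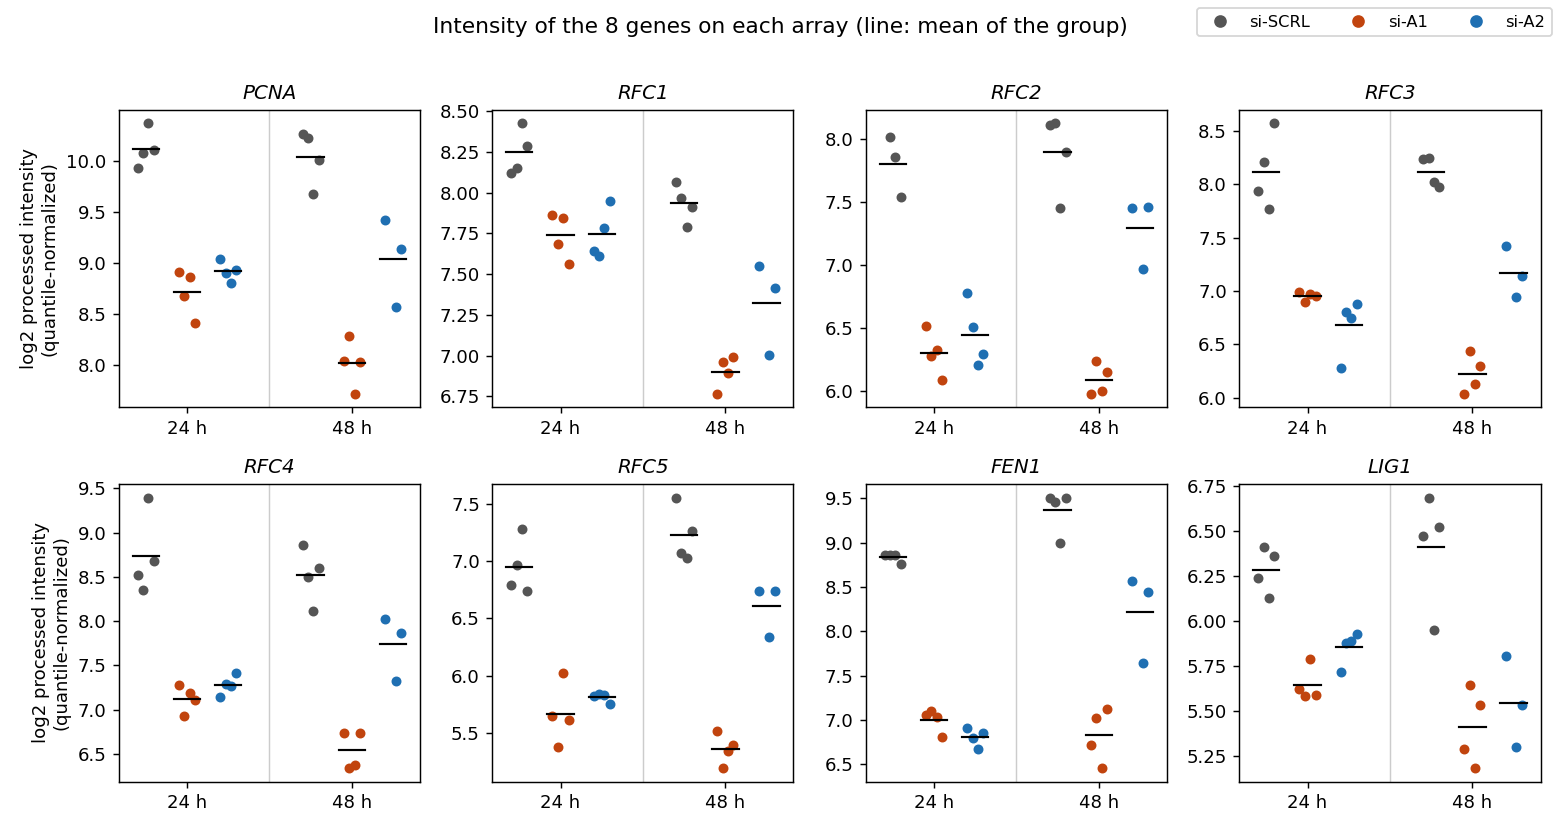
Quantile-normalized log2 processed intensity of the 8 genes on each array, with 1 panel per gene, 1 point per array and a line at the mean of each siRNA group at 24 h and at 48 h. At 24 h the si-A1 and si-A2 points lie side by side under si-SCRL, and at 48 h the si-A2 points lie between the other groups for most genes; levels of different genes come from different probes and are not to be compared.

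The number of calls at 24 h depended on the fit, and the sizes on the background correction. With normexp the medians over the 8 genes at 24 h were -0.94 with si-A1 and -0.98 with si-A2. With only the 2 groups compared in a fit, 1 of 8 genes was called with either siRNA, which was FEN1. For si-A2, 3 genes were called without si-SCRL replicate 2 and 2 without si-A2 replicate 3. The genes kept their direction against si-SCRL under every alternative that tested them (RFC1 and LIG1 did not pass the interquartile range filter at 24 h). On each of the 2 slides of a time point 8 of 8 genes were lower than si-SCRL with both siRNAs. Over both slides 42.9% to 48.3% of all genes were lower in these comparisons. Slide 1 held 1 si-A2 array at 48 h and 1 si-SCRL value of RFC2 at 24 h.

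Between the siRNAs at 24 h, no gene differed by the threshold. For si-A2 minus si-A1 limma called 0 of 8 genes, and 0 had an unadjusted p below 0.05, beside 0.308% of all genes called in either direction. The differences ran from -0.28 (RFC3, 95% interval -0.70 to 0.14) to 0.21 (LIG1, -0.06 to 0.48). For PCNA the interval was -0.13 to 0.54 around 0.20, so a difference of about that size between the siRNAs is not excluded by these arrays. The other PCNA probes gave 0.05 and -0.16.

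At 48 h all 8 genes fell with si-A1, RFC1 and LIG1 included. The median difference was -1.88 over the 8 genes, and 3.66% of all genes were called lower in this comparison. Every gene was lower on each si-A1 array than on each si-SCRL array, beside 8.18% of all genes. FEN1 had the largest difference, -2.54 (SE 0.22; adjusted p = 0.000174), or 5.81-fold lower intensity. LIG1 had the smallest, -0.999 (SE 0.16; adjusted p = 0.00425). The luminal marker KLK2 was also called lower in this comparison (-1.07, adjusted p = 0.000977), and its part in the result was not tested.

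With si-A2 at 48 h, 0 of the 8 genes were called, beside 0.379% of all genes called lower. The TAPIR-2 probe that was above background differed by 0.23 there (limma adjusted p = 0.75), and its part in this result was not tested. The adjusted p of PCNA, RFC3, FEN1 and LIG1 lay between 0.0112 and 0.0497, and that of the other genes was higher. The median difference was -0.78, beside 0.01 over all genes. The si-A2 and si-SCRL arrays did not overlap for 7 of 8 genes, beside 6.80% of all genes, and the exception was RFC2. This group has 3 arrays, and its replicate 3 read lowest of them for each of the 8 genes. Replicate 3 of si-SCRL at 48 h also read lowest of its group, for every gene except RFC3.

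FEN1 read 9.51, 9.46, 8.996 and 9.51 log2 units with si-SCRL at 48 h, 6.71, 7.02, 6.46 and 7.13 with si-A1, and 8.57, 7.64 and 8.44 with si-A2 (replicates 1, 3 and 4). The 3 groups did not overlap, and si-A2 stood in between. With si-A2 its difference from si-SCRL was -1.11 (SE 0.24; adjusted p = 0.0497).

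PCNA read 10.26, 10.22, 9.67 and 10.01 with si-SCRL, 8.04, 8.28, 7.72 and 8.03 with si-A1, and 9.43, 8.57 and 9.14 with si-A2. Again the si-A2 arrays fell between the other groups without overlap. The difference was -2.02 (SE 0.15; adjusted p = 8.27e-05) with si-A1, or 4.06-fold lower intensity, and -0.93 (SE 0.16; adjusted p = 0.0231) with si-A2. A second PCNA probe gave -1.94 and -0.85.

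Among the small loader subunits, RFC3 read between 7.97 and 8.24 with si-SCRL, between 6.04 and 6.44 with si-A1 and between 6.95 and 7.42 with si-A2. It differed by -1.89 (adjusted p = 4.94e-05) with si-A1 and -0.91 (adjusted p = 0.0112) with si-A2. RFC4 differed by -1.97 (adjusted p = 0.000293) and -0.74 (adjusted p = 0.114). The same order held for RFC5, with -1.87 (adjusted p = 9.94e-05) and -0.61 (adjusted p = 0.0928).

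RFC2 read 8.11, 8.12, 7.45 and 7.89 with si-SCRL, 5.98, 6.23, 5.996 and 6.15 with si-A1, and 7.45, 6.97 and 7.45 with si-A2. The si-A1 arrays stood far below both other groups, while 2 si-A2 arrays touched the lowest si-SCRL array. Its difference was -1.81 (adjusted p = 0.000151) with si-A1 and -0.56 (adjusted p = 0.134) with si-A2.

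RFC1 and LIG1 followed at smaller size. RFC1 differed by -1.03 (adjusted p = 0.000926) with si-A1 and -0.59 (adjusted p = 0.0575) with si-A2. LIG1 read 6.48, 6.69, 5.95 and 6.52 with si-SCRL, 5.29, 5.64, 5.18 and 5.53 with si-A1, and 5.80, 5.30 and 5.53 with si-A2. In this gene alone of the 8, the si-A1 and si-A2 arrays overlapped at 48 h.

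LIG1 was also the gene whose si-A1 call was least firm. It was lost, at adjusted p between 0.0118 and 0.0163, without si-SCRL replicate 1, 2 or 4 or without si-A1 replicate 1, 2 or 3. Between 7 and 8 genes were called with si-A1 whichever array was left out.

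Set directly against each other at 48 h, si-A2 cells had higher levels of 4 of the 8 genes than si-A1 cells, while 0.926% of all genes were called higher. These were RFC5 (1.26, SE 0.16; adjusted p = 0.00419), RFC2 (1.243, SE 0.17; adjusted p = 0.00512), PCNA (1.09, SE 0.16; adjusted p = 0.00829) and RFC3 (0.98, SE 0.13; adjusted p = 0.00465). RFC4 and FEN1 differed by 1.23 (adjusted p = 0.0138) and 1.43 (adjusted p = 0.0135), and RFC1 by 0.44 (adjusted p = 0.114). For LIG1 the difference was 0.18 (95% interval -0.21 to 0.57; adjusted p = 0.673). With each probe as its own row, the second PCNA probe gave 1.09 (adjusted p = 0.0136) and was not called. The second RFC3 probe gave 1.31 (adjusted p = 0.00718). The si-A2 arrays lay above all si-A1 arrays for 7 of 8 genes, beside 7.23% of all genes, and the median was 1.16 beside -0.04 over all genes. On each of the 2 slides 8 of 8 genes were higher with si-A2, but slide 1 held 1 si-A2 array. In the fit over both slides 55.9% of all genes were lower with si-A2.

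These calls depended on single arrays, and the sizes at 48 h, like those at 24 h, on the background correction. With normexp the medians over the 8 genes at 48 h were -1.22 with si-A1, -0.48 with si-A2 and 0.70 for si-A2 minus si-A1. No gene was called without si-A1 replicate 2, 3 or 4 or si-A2 replicate 1 or 4, 1 was called without si-SCRL replicate 1, 2 or 4 or si-A1 replicate 1, 3 without si-SCRL replicate 3, and 5 without si-A2 replicate 3. With the replicate number as a block, RFC4 (1.15, adjusted p = 0.00711) and FEN1 (1.44, adjusted p = 0.00718) were called and RFC3 (1.002, adjusted p = 0.0176) was not. KLK2 was also higher with si-A2 than with si-A1 (0.91, adjusted p = 0.00937), and its part in this difference was not tested either.

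**Figure D3:**
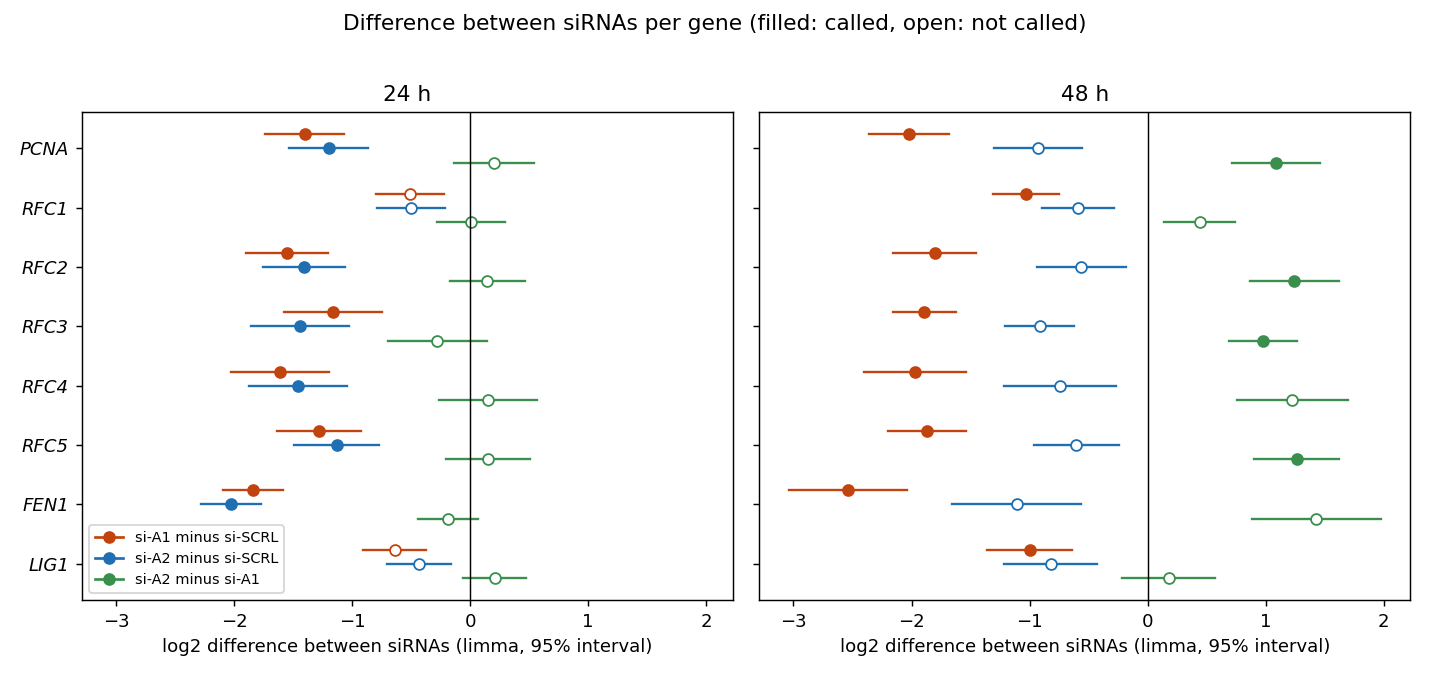
Log2 difference between siRNAs for each of the 8 genes at 24 h and at 48 h, with limma's 95% interval (bars), for si-A1 minus si-SCRL, si-A2 minus si-SCRL and si-A2 minus si-A1. Filled points were called and open points were not; the si-A1 and si-A2 points share their si-SCRL arrays, and at 48 h the si-A2 points lie nearer to 0 than the si-A1 points for all 8 genes.

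An interaction term asked whether an effect differed between the time points, for the 30241 genes measured on both array versions. With si-A1 all 8 genes were more negative at 48 h, with a median change of -0.54, from -0.28 for RFC2 to -0.76 for RFC3. Limma called 0 of them (lowest adjusted p = 0.126), beside 0.119% of all genes called more negative, and 5 had an unadjusted p below 0.05 beside 12.7% of all genes.

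With si-A2 the change was above 0 for 6 genes, with FEN1 (0.93, 95% interval 0.40 to 1.47) and RFC2 (0.84, 0.37 to 1.31) at the top. It was below 0 for RFC1 (-0.09, -0.46 to 0.29) and LIG1 (-0.38, -0.80 to 0.05). Again limma called 0 of 8 (lowest adjusted p = 0.27), beside 0.0331% of all genes called more positive, and 5 had an unadjusted p below 0.05 beside 7.32% of all genes. An effect that was called at 24 h and not at 48 h is therefore not shown to have changed for these genes.

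**Figure D4:**
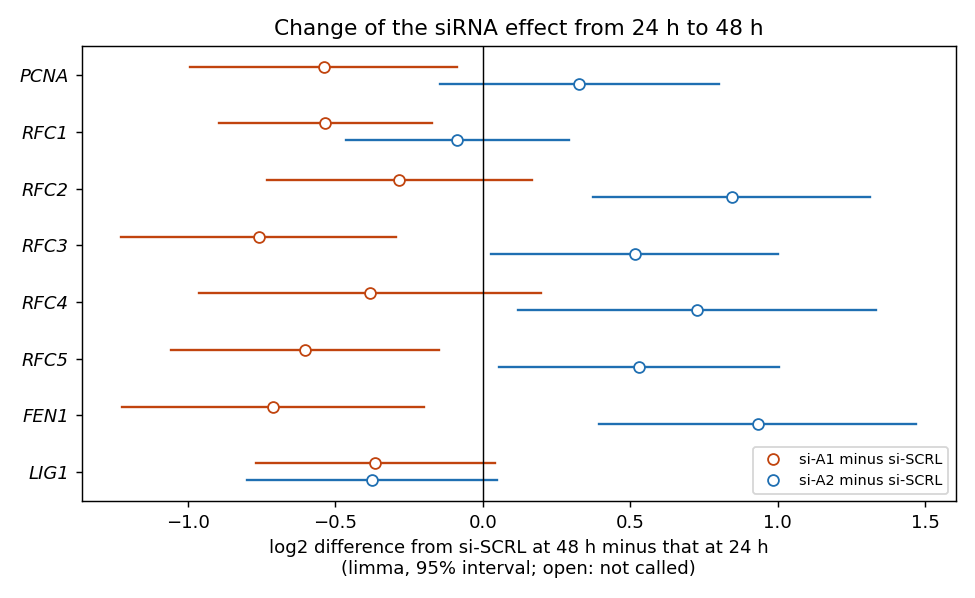
Change of the log2 difference from si-SCRL between 24 h and 48 h for each of the 8 genes and both siRNAs, with limma's 95% interval (bars); points left of 0 are more negative at 48 h. All si-A1 points lie left of 0 and 6 of the 8 si-A2 points lie right of it, and none was called.

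Levels of the 8 genes moved together across arrays. As a description, Pearson's r to PCNA ran from 0.848 (RFC3) to 0.972 (RFC2) over the 12 arrays of 24 h and from 0.911 (LIG1) to 0.991 (FEN1) over the 11 of 48 h. The genes outside the 8 with the highest r to PCNA at 24 h were ORC6 (0.99), RAD51AP1 (0.99), KNTC1 (0.989), FANCI (0.989) and WDHD1 (0.988). At 48 h their r was 0.972, 0.983, 0.946, 0.988 and 0.916 in the same order. These arrays share the split between siRNAs and their slides, and these correlations were not separated from the group differences given above.

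To place the 8 genes among their neighbours, 41 other genes in 3 lists were read in the same fits, and all were measured. The first list holds 8 genes of other clamps and clamp loaders. At 24 h with si-A1, ATAD5, the unloader of PCNA (-1.65), DSCC1 (-1.64) and CHTF8 (-1.02), both of an alternative loader, fell. With si-A2 ATAD5 (-1.99) and DSCC1 (-1.63) fell, and ATAD5 was well above background on 1 of 4 si-A2 arrays. RAD1, a subunit of the checkpoint clamp (-0.21 with si-A1), and RAD17, its loader (-0.14 with si-A2), had the smallest differences and were not called. RAD17 differed by -1.43 with si-A1 (limma adjusted p = 0.0121) and by 1.29 for si-A2 minus si-A1 (adjusted p = 0.0356), and was not called in these comparisons either. At 48 h with si-A1, 6 of 8 fell, namely ATAD5 (-2.35), DSCC1 (-1.85), CHTF18 (-1.37), CHTF8 (-1.36), RAD9A (-0.98) and RAD1 (-0.59). With si-A2 0 of 8 were called, from -1.03 for ATAD5 (adjusted p = 0.0155) to -0.21 for RAD1. Between the siRNAs at 48 h, ATAD5 (1.31), DSCC1 (1.22), CHTF18 (1.05) and CHTF8 (0.80) were higher with si-A2. Medians against si-SCRL were -0.94 and -0.32 at 24 h and -1.22 and -0.44 at 48 h, with si-A1 first.

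The second list holds 16 other genes of Okazaki fragment processing, flap nucleases and ligases, most of which were not called. At 24 h with si-A1 only EXO1, an exonuclease related to FEN1, fell (-2.30). With si-A2 EXO1 (-2.62), POLD3, a subunit of polymerase delta (-1.34), and GEN1, a nuclease that resolves DNA junctions (-1.26), fell. POLD3 and GEN1 were each well above background on 2 of 4 si-A2 arrays there. At 48 h with si-A1, 5 of 16 fell, namely EXO1 (-2.70), RNASEH2B of the ribonuclease that removes RNA from DNA (-1.24), XRCC1, the partner of LIG3 (-0.95), DNA2, a long-flap nuclease (-0.82), and POLD3 (-0.81). With si-A2 0 of 16 were called at 48 h, from -0.82 for RNASEH2B (adjusted p = 0.0142) to 0.27 for ERCC5. LIG4, the ligase of end joining, had the highest value in the other comparisons with si-SCRL, and was not called. At 24 h no si-SCRL array showed LIG4 well above background, against 3 of 4 arrays with si-A1 and 2 of 4 with si-A2. Its fitted differences, 0.23 with si-A1 (limma adjusted p = 0.744) and 0.16 with si-A2 (adjusted p = 0.863), do not establish a rise. At 48 h it differed by 0.38 with si-A1. EXO1 was the single gene of the list called higher with si-A2 than with si-A1 at 48 h (1.92). Medians were -0.33 and -0.14 at 24 h and -0.54 and -0.30 at 48 h.

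The third list holds 17 partners and modifiers of PCNA. DTL, which brings a ubiquitin ligase to proteins bound to PCNA, differed by -3.83 with si-A1 at 24 h, where 2 of 4 arrays were well above background. With si-A2 no array showed DTL well above background at 24 h. Its fitted difference from si-SCRL there was -4.13 (limma adjusted p = 0.000177), and its size is not a measured fold change. PCLAF, a small protein that binds PCNA (-1.54 with si-A1 and -1.999 with si-A2), and CHAF1A, the chromatin assembly factor subunit (-1.53 and -1.67), fell as well. CDKN1A, the cyclin-dependent kinase inhibitor p21, which also binds PCNA, rose with si-A2 (1.79; 0.0764% of all genes were called higher), and the difference with si-A1 was 0.68 (adjusted p = 0.0465). It was higher with si-A2 than with si-A1 (1.12; 0.205% of all genes).

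At 48 h with si-A1, 10 of the 17 fell and CDKN1A rose (2.10; 2.16% of all genes were called higher). DTL (-3.37), PCLAF (-3.36), CHAF1A (-2.31), PARPBP (-2.19), the maintenance methyltransferase DNMT1 (-1.91), USP1, which removes ubiquitin from PCNA (-1.47), HLTF (-0.97), TRAIP (-0.89) and UNG (-0.77) fell. RAD18, a ligase that ubiquitinates PCNA, was also called lower (limma adjusted p = 0.000767). It was well above background on none of the si-A1 arrays, so the size of its fall was not measured. With si-A2, PARPBP (-1.64) and CHAF1A (-1.12) fell, while PCLAF (-1.999) and CDKN1A (1.21) had an adjusted p of 0.0182 each. DTL (2.43), CHAF1A (1.19) and UBE2B (0.95), a conjugating enzyme that works with RAD18, were higher with si-A2 than with si-A1 at 48 h. Medians were -0.81 and -0.95 at 24 h and -0.97 and -0.57 at 48 h.

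**Figure D5:**
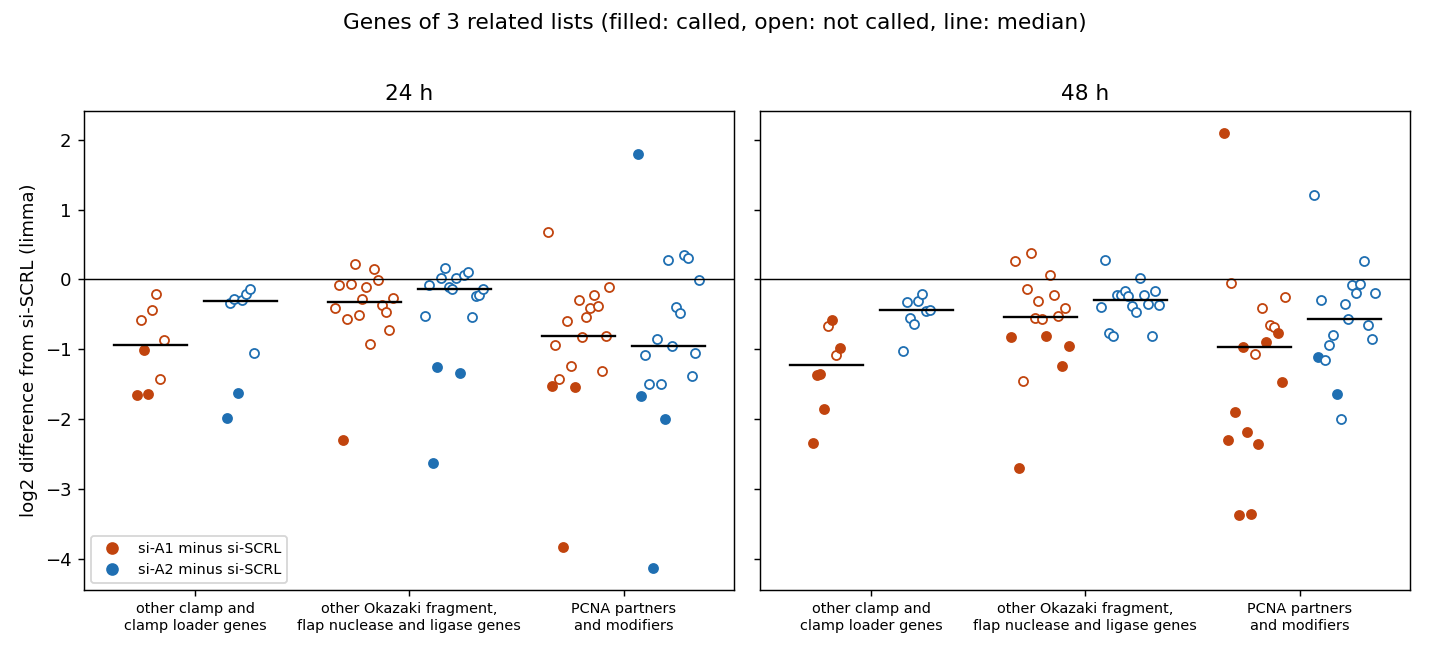
Log2 difference from si-SCRL of the 41 genes of the 3 related lists at 24 h and 48 h, with 1 point per gene for si-A1 and si-A2 (filled: called, open: not called) and a line at the median of the list. Most filled points lie below 0 and belong to si-A1 at 48 h, where 21 genes were called lower and 1 higher.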

How the data were processed

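Agilent Feature Extraction 11.5.1.1 files were deposited by the authors, 1 per array, in which the processed signal is a background-subtracted intensity on a linear scale. The authors also deposited log2 values per time point, which follow the same order within each array (Spearman's rho 1) and were used to check the normalization; their largest difference from the values computed here was 0.0528 at 24 h and 0.219 at 48 h. According to the submitters' processing notes R 3.4.3, limma 3.34.8 and hg38 were used.

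Log2 processed intensities of all spots were brought to the same quantiles within each time point. Control spots were dropped, flagged spots were set aside and repeated spots averaged. Probes were named through RefSeq accessions (57.4% of probes at 24 h and 53.4% at 48 h), otherwise by the array design. Each name counts as 1 gene in the shares of all genes, those from the array design included. A probe was kept when above the mean plus 3 SDs of 308 negative controls on at least 3 arrays, and the brightest probe stood for a gene. R 4.3.3 and limma 3.58.1 served for the linear models (statmod 1.5.0; tables were read with data.table, version 1.17.8), with all 3 siRNAs and the slide as an additive term, and p-values were Benjamini-Hochberg adjusted over all genes tested. The slide, 2 per time point, is read from the scanner output, and each holds all 3 siRNAs. For the interaction all arrays were normalized together. The interquartile range filter of the authors was an alternative here, as were normexp on median signals (offset 50), the scaling, filters, blocks and each array left out. No fold change or p-value of the authors was used. Samples were grouped from their labels. Scripts were tested on simulated data.

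Samples with the same replicate number deviated together at 48 h (r from 0.189 to 0.372 over 10 pairs), and so did samples of the same slide with different numbers (0.105 to 0.306). At 24 h r was between -0.152 and 0.151 over 12 pairs.

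The members and lists were chosen with earlier results of these data known. Named are all members, every called gene and the highest and lowest of each list, and the 5 genes most like PCNA. Where no array of a group showed a probe well above background, its level there was not measured. The size of a difference from that group is then neither an exact value nor a bound. Some marker genes are not reported here. The number of arrays limits the precision.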

Additional observations from a re-analysis of the deposited data

Results flagged for a closer look

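FEN1 on si-SCRL replicate 4 at 24 h read 8.762 log2 units, apart from the other 3 arrays at 8.86 to 8.87. FEN1 on si-SCRL replicate 3 at 48 h read 8.996, apart from the others at 9.46 to 9.51. These were the only 2 of 39 groups of 4 arrays with a sample far from the rest, and chance marks about 1 group in 20. At 48 h FEN1 read lowest on replicate 3 with si-A1 (6.46) and with si-A2 (7.64) too.

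The effect of si-A2 on DTL was 3.51 log2 units higher at 48 h than at 24 h (limma adjusted p = 0.000624 for the interaction). The effect of si-A2 on EXO1 was 1.90 higher at 48 h (adjusted p = 0.000101). DTL was not well above background with si-A2 at 24 h, so its fitted change rests on a level that was not measured and is neither an exact value nor a bound.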

How the results depend on the processing

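Each gene kept its direction against si-SCRL at both time points in every alternative that tested it; RFC1 and LIG1 did not pass the interquartile range filter at 24 h. Of the 6 genes called with si-A1 at 24 h, 1 was called with only the 2 groups in the fit, and 5 to 7 with 1 array left out. For si-A2 at 24 h the count of 6 became 1 with only 2 groups and 3 with the interquartile range filter, which tests fewer genes, and ran from 2 to 6 with 1 array left out. For si-A1 at 48 h the count of 8 became 0 with the dim array kept and was 7 to 8 with 1 array left out. For si-A2 at 48 h the count of 0 became 3 with normexp, 4 without background correction, 1 with the slide as a random block and 2 with the filter on probes well above background, and was 0 to 1 with 1 array left out. For si-A2 minus si-A1 at 48 h the count of 4 became 1 without the slide term, 0 with only 2 groups, 2 with the interquartile range filter and 0 with the dim array, and ran from 0 to 5 with 1 array left out. Both interactions stayed at 0 genes throughout. With the replicate number as a block the counts were 5, 6 and 0 at 24 h and 8, 0 and 5 at 48 h; at 24 h RFC3 with si-A1 was lost (adjusted p = 0.0147).

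Sizes moved as well. With normexp the median over the 8 genes at 24 h was -0.94 with si-A1 (from -1.34) and -0.98 with si-A2 (from -1.30). With normexp the median over the 8 genes at 48 h was -1.22 with si-A1 (from -1.88), -0.48 with si-A2 (from -0.78) and 0.70 for si-A2 minus si-A1 (from 1.16), and the median change of the si-A2 effect was 0.31 (from 0.52; 0.32 without background correction). With the dim array kept, the medians were -1.46 with si-A2, 0.19 for si-A2 minus si-A1 and -0.34 for that change.

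Directions reversed for si-A2 minus si-A1 at 24 h in RFC1 without si-A1 replicate 4 (-0.081) or si-A2 replicate 4 (-0.04). With the dim array kept, si-A2 minus si-A1 at 48 h reversed in RFC3 (-0.55), RFC1 (-0.36) and LIG1 (-0.14), and the change of the si-A2 effect in RFC2 (-0.059), RFC3 (-0.98) and PCNA (-0.62). That change reversed in RFC1 (0.057) without si-A2 replicate 3 at 48 h. With 1 array left out, these RFC1 values ran from -0.081 to 0.079 and from -0.20 to 0.057. The cause was not tested.

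Over all genes, 378 and 331 were called with si-A1 and si-A2 at 24 h (136 to 567 and 152 to 451 over the alternatives without the dim array) and 2195 and 167 at 48 h (860 to 3056 and 0 to 600). For si-A2 minus si-A1 the counts were 113 (17 to 312) and 511 (0 to 927), and for the interactions 53 (30 to 144) and 11 (7 to 15). With the dim array kept, 23 were called with si-A1 and 0 in both other comparisons of 48 h. With the replicate block 0 were called with si-A2 at 48 h. Scaling to the 75th percentile moved the median of all genes to 0.13 with si-A1 at 24 h and 0.12 at 48 h.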

Other observations

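The dim array, si-A2 replicate 2 at 48 h, had a median processed intensity of 13.9. PCNA read 17.6 on it, against 374 to 699 on the other si-A2 arrays of 48 h, and FEN1 29.6 against 196 to 378. RFC3 read 1.81 and was not well above background there.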
